A study of Mus musculus with 16 samples.

Results

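The comparison described here is the genotype by injury interaction in mouse muscle stem cells (MuSCs), that is, whether the difference between TRF2 knockout (KO) and wild-type (WT) libraries is the same in uninjured muscle and at 3 days post-injury (3 DPI). It uses all 16 of the 16 RNA-seq libraries of the study, 4 in each group: WT uninjured, KO uninjured, WT 3 DPI and KO 3 DPI. In the KO mice a floxed Terf2 gene is deleted by tamoxifen in cells that express a CreERT2 recombinase from the Pax7 locus, so the deletion depends on Pax7 activity and can be incomplete. The WT groups are labelled wild type, and whether they carried Cre or received tamoxifen was not stated for these libraries in the sources used here. Tamoxifen was started in young adult mice, and the age at sorting was not given for these libraries. Injury was made with 10 µl of the snake-venom toxin notexin in the tibialis anterior muscle, and all groups were sorted as cells without CD45, CD31, CD11b and Sca1 that carry α7-integrin together with VCAM or CD34. The labels number the 4 libraries of a group as Rep 1 to Rep 4 and do not say that they came from separate mice, so the p-values measure the spread between these samples, part of which may be technical.

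TRF2, encoded by Terf2, is a subunit of shelterin, the complex that covers telomeric repeats and keeps chromosome ends from being read as broken DNA. In many somatic cells, though not in every cell type, loss of that cover activates ATM and p53. Active p53 raises genes that stop the cell cycle or promote cell death, of which Cdkn1a (p21) is the best known. MuSCs are Pax7-expressing cells that rest under the basal lamina of the muscle fibre, and after injury they leave quiescence, divide and form new muscle, while macrophages and fibroadipogenic progenitors enter or expand in the tissue.

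The summed estimated counts were 620406 to 1351100 per library, and 16822 of 24411 genes passed the filter on low counts. The KO 3 DPI replicate 3 library stood apart: 15387 genes had a count, against 19996 to 21879 in the other libraries, 19.1% of the tested genes were at 0 in it, against at most 2.47% elsewhere, and the first principal component (31.4% of the variance of log2 CPM) separated it alone. The main counts and the genes they rest on are therefore also given without it (15 libraries, 17610 genes tested). Terf2 itself, in CPM (library counts scaled to a common total with trimmed-mean-of-M-values factors), was 71.5, 94.5, 66.3 and 73.1 in WT uninjured, 49.7, 46.7, 58.7 and 27.2 in KO uninjured, 35.5, 48.6, 48.2 and 42.8 in WT 3 DPI and 52.6, 21.9, 66.9 and 89.7 in KO 3 DPI. The KO libraries were below every WT library in uninjured muscle (log2 fold change -0.74 ± 0.35 SE, adjusted p = 0.471 in edgeR's quasi-likelihood test), but at 3 DPI the libraries labelled KO were not lower (0.39 ± 0.35, adjusted p = 0.646 in the same edgeR test), nor without replicate 3 (0.25 ± 0.34). The count covers the whole gene, including any part outside the floxed segment. KO at 3 DPI below therefore means the libraries labelled so, and each direction given for them rests on that label.

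Few genotype effects could be followed through injury with all 16 libraries in edgeR, and those lost there were p53 target genes and Gas6. Calls required a fold change above 1.5 and an adjusted p below 0.02 in edgeR's quasi-likelihood test. In uninjured cells 12 genes were called higher and 70 lower in the KO, 0.487% of the genes tested. At 3 DPI 0 were called higher and 3 lower, 0.0178% (2369 genes, 14.1%, had an unadjusted p under 0.05). The interaction, the 3 DPI effect minus the uninjured effect, called 0 genes higher and 3 lower, again 0.0178% (966 genes, 5.74%, with an unadjusted p under 0.05, 3.57% with a positive and 2.17% with a negative estimate). The called split depended on scaling: with library size alone the uninjured effect was called higher in 17 genes and lower in 11. With that scaling the median of all genes was 0.29 instead of -0.0031 on the log2 scale in the uninjured effect and -0.12 instead of 0.035 in the interaction.

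An effect was classed as kept if called in both states in the same direction, reversed if called in opposite directions, and lost if called in uninjured cells, not called at 3 DPI and called with the opposite sign in the interaction. Of the 82 uninjured effects 1 was kept (Itga7), 3 were lost (Cdkn1a, Gas6 and Ccng1) and 0 were reversed. The remaining 78 passed neither test after injury and could not be placed. Without KO 3 DPI replicate 3 the uninjured effect called 49 genes higher and 331 lower (2.16% of 17610, 0.278% and 1.88% by direction), the 3 DPI effect 2 higher and 42 lower (0.25%, 0.0114% and 0.239%) and the interaction 4 higher and 9 lower (0.0738%, 0.0227% and 0.0511%). Of those 380 effects 23 were kept, 12 were lost, 0 were reversed and 345 could not be placed. A gene called at 3 DPI but not in uninjured cells was classed as gained if its interaction was called in the same direction, which held for 1 gene without that library (Chodl), and 20 others called at 3 DPI and not before had no called interaction and could not be placed. With all 16 libraries these counts were 0 and 2. DESeq2 also classed 0 genes as reversed and limma 12, with all 16 libraries in both. Both of these fits called and classed more genes than edgeR. With limma's robust fit 624 genes were called at 3 DPI and 123 in the interaction, and 44 effects were lost. In contrast, limma-voom with group weights called 0 genes at 3 DPI. The counts of DESeq2 are given with the processing below.

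**Figure D1:**
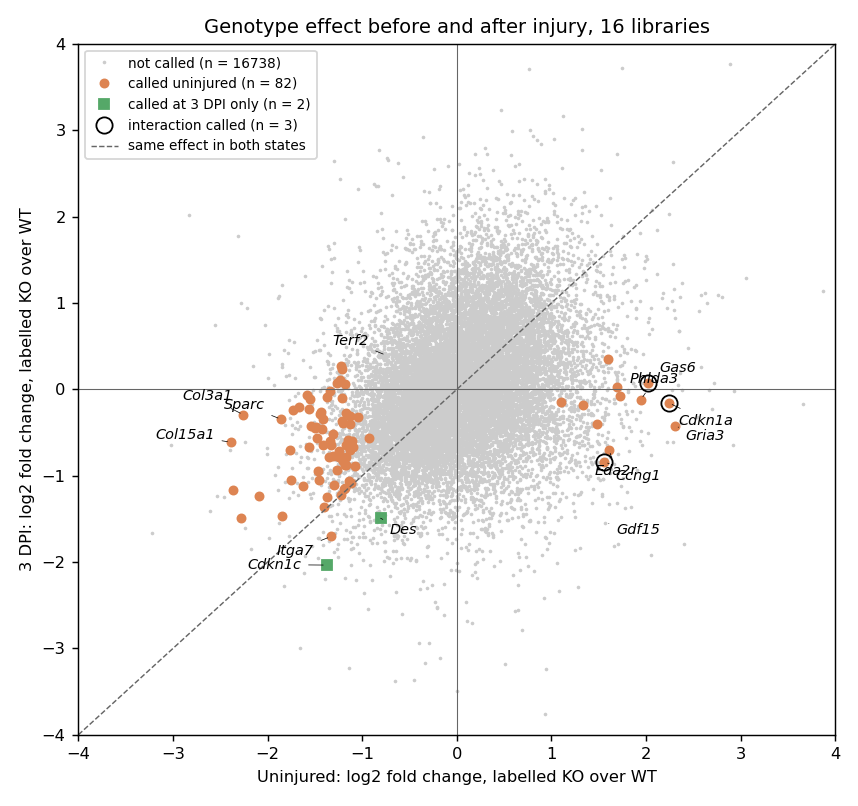
Each point is one of the 16822 tested genes, with the log2 fold change of KO over WT in uninjured cells on the horizontal axis and at 3 DPI on the vertical axis, from the 16-library fit (32 genes lie outside the axes). Orange points were called in uninjured cells, green squares at 3 DPI only, and black rings mark the 3 called interactions. The genes called lower sit mostly in the lower left, towards the dashed line of equal effects, whereas 9 of the 12 genes called higher lie below the horizontal zero line.

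Most genes called lower in uninjured KO cells also had lower estimates in the libraries labelled KO at 3 DPI. Few of them passed the test there. The 2 genotype effects share no library, so the 3 DPI estimate comes from other libraries than those that chose the genes. Some KO libraries of both states share the name code JH139, and some WT libraries JH140, as described below. Among the 70 genes called lower in uninjured KO cells, 65 (92.9%) also had a lower estimate at 3 DPI, with a median log2 fold change of -0.63, against 51.0% and -0.015 over all genes tested. Among the 12 called higher, 3 had a higher estimate at 3 DPI and the median was -0.15. Without KO 3 DPI replicate 3 the counts were 296 of 331 (89.4%, median -0.59) and 23 of 49 (median -0.0060). In separate fits of the 8 uninjured libraries (3.22% of genes called, 0.584% higher and 2.63% lower) and the 8 injured libraries they were 321 of 369 (87.0%, median -0.56) and 48 of 81 (59.3%, median 0.14). Thus the lower effects kept their sign in most genes in each of these fits, whereas the share of higher effects that kept theirs moved from 25% to 59.3% with the fit. These counts are descriptions, and the 2 directions were not compared by a test.

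The 12 genes that rose in uninjured KO cells were Aen, Ccng1, Cd109, Cdkn1a, Eda2r, Exoc4, Fat1, Gas6, Gria3, Mdm2, Phlda3 and Zmat3. The window from 250 bases before to 50 bases after the transcription start (RefSeq, GRCm38.p6) was found for 9 of them, and for 5 of these 9 genes it held the p53 response-element decamer, which is its own reverse complement and so was searched on both strands at once. It was present in 1094 of 12569 matched tested genes (8.70%), in 12 of 30 matched p53 targets, and in 2 of 44 matched genes called lower. A full element, 2 decamers at most 13 bases apart, was present for 8 genes (0.0636%), of which Cdkn1a is one. The 250 bases before the start are shown for the 5 genes because the p53 decamer lies in them. In GRCm38.p6 they lie at chr17:29090729-29090978 (plus strand) for Cdkn1a, chr11:40755287-40755536 (minus strand) for Ccng1, chr10:117710759-117711008 (minus strand) for Mdm2, chr7:78895808-78896057 (plus strand) for the second start of Aen and chr6:33248878-33249127 (plus strand) for Exoc4. Each is written from its own strand, with the decamer, or for Cdkn1a the full element with its spacer, in capitals.
Cdkn1a: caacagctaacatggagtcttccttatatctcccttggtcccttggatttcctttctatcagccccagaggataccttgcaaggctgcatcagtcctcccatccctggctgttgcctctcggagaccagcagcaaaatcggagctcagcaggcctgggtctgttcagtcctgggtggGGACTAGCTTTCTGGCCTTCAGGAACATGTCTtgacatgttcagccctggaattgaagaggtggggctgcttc
Ccng1: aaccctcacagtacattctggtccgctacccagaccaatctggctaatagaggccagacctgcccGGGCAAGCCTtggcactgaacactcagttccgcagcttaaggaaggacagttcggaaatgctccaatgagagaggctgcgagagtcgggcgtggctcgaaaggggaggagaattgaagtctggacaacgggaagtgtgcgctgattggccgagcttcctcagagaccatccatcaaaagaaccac
Mdm2: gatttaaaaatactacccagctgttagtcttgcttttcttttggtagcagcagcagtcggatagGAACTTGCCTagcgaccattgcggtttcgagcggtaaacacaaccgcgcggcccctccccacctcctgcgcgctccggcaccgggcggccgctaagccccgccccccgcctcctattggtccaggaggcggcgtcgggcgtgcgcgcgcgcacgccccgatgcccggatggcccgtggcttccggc
Aen: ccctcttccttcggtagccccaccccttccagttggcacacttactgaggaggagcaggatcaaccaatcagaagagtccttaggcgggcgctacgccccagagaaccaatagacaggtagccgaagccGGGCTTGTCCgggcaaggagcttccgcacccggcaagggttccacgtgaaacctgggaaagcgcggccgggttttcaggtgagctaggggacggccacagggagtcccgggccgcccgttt
Exoc4: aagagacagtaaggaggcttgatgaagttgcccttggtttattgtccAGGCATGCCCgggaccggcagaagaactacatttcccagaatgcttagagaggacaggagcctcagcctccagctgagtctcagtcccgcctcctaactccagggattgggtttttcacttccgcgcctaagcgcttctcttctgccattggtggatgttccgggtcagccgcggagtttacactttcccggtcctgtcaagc
The first capital base is 73 bases before the start in Cdkn1a, 185 in Ccng1, 186 in Mdm2, 121 in Aen and 203 in Exoc4. Cdkn1a has another start, whose window (chr17:29093519-29093818) held no decamer. A match is a description of the letters and does not show binding.

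Cdkn1a, the cyclin-dependent kinase inhibitor p21 (chr17:29090976-29100727, GRCm38), had the interaction of smallest p. Its CPM was 96.5, 87.3, 107 and 125 in WT uninjured and 432, 579, 449 and 507 in KO uninjured libraries. At 3 DPI it was 124, 132, 211 and 148 in WT and 138, 119.9, 162 and 133 in KO. Every uninjured KO library was thus above every other library, while the 2 genotypes overlapped after injury. The log2 fold change was 2.24 ± 0.23 (SE) before injury (adjusted p = 4.25e-06, edgeR's quasi-likelihood test) and -0.16 ± 0.22 after it. The interaction was -2.40 ± 0.32 (adjusted p = 9.44e-04, edgeR) and -2.60 ± 0.32 without KO 3 DPI replicate 3 (adjusted p = 2.98e-06, edgeR). It was called under each of the 27 alternatives in which its own value was computed, with adjusted p of 6.43e-11 to 0.0147. Read along injury rather than genotype, Cdkn1a fell by 1.83 on the log2 scale in KO cells (adjusted p = 1.64e-06, edgeR) and differed by 0.57 in WT cells (adjusted p = 0.113, edgeR).

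Ccng1, which encodes cyclin G1 and is a direct p53 target (chr11:40748552-40755311), was lost by a change in both genotypes. Its CPM was 39.3, 60.3, 26.7 and 43.9 in WT uninjured and 98.2, 167, 150.3 and 88.5 in KO uninjured libraries. At 3 DPI it was 86.5, 96.3, 102 and 98.7 in WT and 47.9, 54.2, 53.3 and 59.4 in KO, so that the groups did not overlap in either state but their order turned. The uninjured log2 fold change was 1.56 ± 0.29 (adjusted p = 0.00822, edgeR), the 3 DPI value of -0.84 ± 0.29 was not called (adjusted p = 0.193, edgeR), and the interaction was -2.40 ± 0.40 (adjusted p = 0.0181, edgeR). Of all genes tested, 3.52% had every KO library above every WT library before injury and 7.78% every one below, and at 3 DPI these shares were 2.8% and 4.48%. With injury Ccng1 rose in WT cells (1.17 ± 0.29, adjusted p = 0.00567, edgeR) and fell in KO cells (-1.23 ± 0.29, adjusted p = 0.00450, edgeR).

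Gdf15, a secreted stress cytokine of the TGF-β family and a p53 target (chr8:70629393-70632456), had the same turned order. It was at 16.1, 8.10, 19.8 and 14.6 CPM in WT uninjured and 54.4, 44.7, 37.2 and 36.8 CPM in KO uninjured libraries. At 3 DPI it was at 137, 87.5, 114 and 114 CPM in WT and 57.3, 47.3, 12.4 and 37.3 CPM in KO libraries. The WT libraries were the highest of the 4 groups after injury, and the KO libraries labelled replicates 1, 2 and 4 stayed near their uninjured level. The uninjured effect of 1.57 ± 0.40 (adjusted p = 0.0527) and the interaction of -3.11 ± 0.54 (adjusted p = 0.0226) missed the threshold in edgeR's quasi-likelihood test with all 16 libraries. Without KO 3 DPI replicate 3, which held the lowest value, the uninjured effect was 1.63 (adjusted p = 0.00137, edgeR), the interaction -2.94 (adjusted p = 2.56e-04, edgeR) and the 3 DPI effect -1.31 ± 0.31 (adjusted p = 0.0311, edgeR). Gdf15 was therefore classed as lost in that fit and, with the 3 DPI effect outside the threshold, was not classed as reversed.

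Gas6, the ligand of the receptor tyrosine kinases Tyro3, Axl and Mertk (chr8:13465374-13494490), followed Cdkn1a rather than Ccng1. It was at 323, 204, 245 and 339 CPM in WT uninjured and 809.5, 1113, 963 and 1637 CPM in KO uninjured libraries. At 3 DPI the 8 libraries lay between 202 and 242 CPM, and the genotypes overlapped. The log2 fold change was 2.02 ± 0.23 before injury (adjusted p = 2.16e-05, edgeR) and 0.076 ± 0.23 after it, with an interaction of -1.95 ± 0.32 (adjusted p = 0.0181, edgeR). Of the 5 genes for Gas6, Pros1 and the 3 receptors, Gas6 was the one called in any of the 3 contrasts. Left out one at a time, 13 of the 16 libraries ended the interaction call of Gas6 and 13 that of Ccng1 (adjusted p up to 0.0843 and 0.0824, edgeR), with the sign kept each time.

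**Figure D2:**
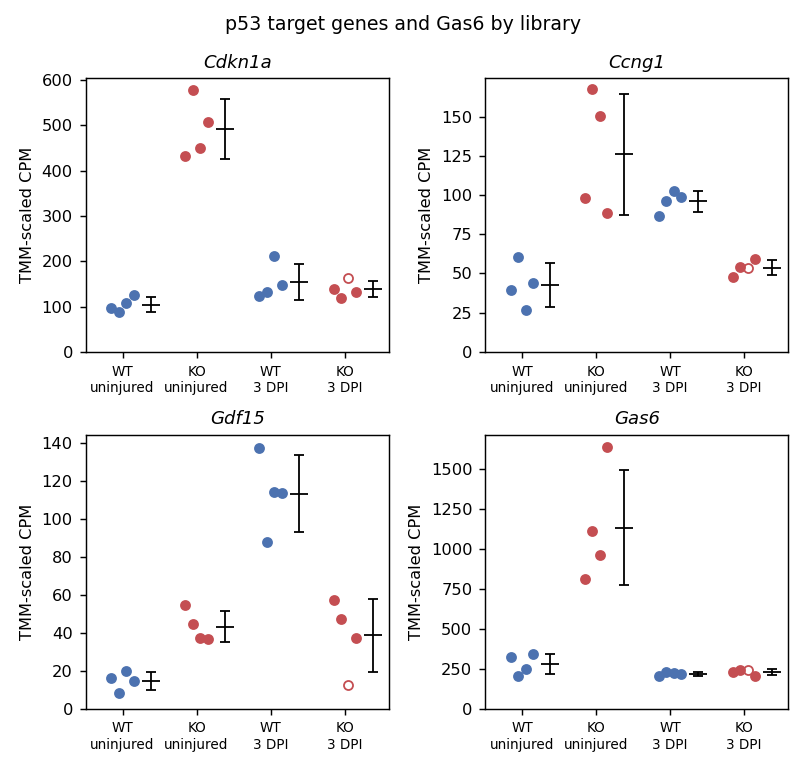
CPM of Cdkn1a, Ccng1, Gdf15 and Gas6 in each library (points; the open point is KO 3 DPI replicate 3), with the mean and SD of the 4 libraries of each group in black. The uninjured KO libraries are the highest group for Cdkn1a, Gas6 and, by the mean, Ccng1, and at 3 DPI the genotypes overlap for Cdkn1a and Gas6 and are in the opposite order for Ccng1 and Gdf15.

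Few of the other p53 targets passed a test. Of 39 p53 targets, all of them tested, 7 rose in uninjured KO cells (Cdkn1a, Ccng1, Mdm2, Eda2r, Zmat3, Phlda3 and Aen) against 0.0713% of all genes, 0 were called at 3 DPI in either direction, and 2 (Cdkn1a and Ccng1) were called lower in the interaction, against 0.0178%. The median log2 fold change of the list was 0.63 before injury, -0.15 after it and -0.72 in the interaction, against -0.0031, -0.015 and 0.035 over all genes. An estimate above 0 was found for 31 of the 39 targets before injury and for 15 of 39 at 3 DPI, and 33 of 39 interactions were below 0. Without KO 3 DPI replicate 3, 12 targets rose before injury (also Gdf15, Bbc3, Ak1, Dcxr and Sulf2), against 0.278% of all genes, 0 were called at 3 DPI and 5 were called lower in the interaction (also Gdf15, Eda2r and Phlda3), against 0.0511%. The list holds known targets and was drawn up with the increase of p53 targets in uninjured KO cells already known, so its count there is a description. The interaction subtracts that uninjured effect, which moves the list towards negative values. Its interaction counts and median are therefore descriptions too. Cdkn1a and Ccng1 were also chosen with earlier results of these data known.

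Eda2r, the receptor for ectodysplasin A2, was one of the targets called in the interaction without KO 3 DPI replicate 3. It was at 41.99, 33.3, 26.7 and 45.8 CPM in WT uninjured and 117, 114, 112 and 110.3 CPM in KO uninjured libraries, and it lay at 16.7 to 37.9 CPM in WT and 13.6 to 22.1 CPM in KO libraries at 3 DPI. Its interaction was -2.31 ± 0.47 (adjusted p = 0.120, edgeR), and -2.31 ± 0.46 without KO 3 DPI replicate 3 (adjusted p = 0.00962, edgeR). Phlda3, which restrains Akt at the membrane, was at 59.9, 42.3, 55.8 and 69.2 CPM in WT and 170.4, 247, 223 and 236 CPM in KO uninjured libraries, and at 33.4 to 60.3 CPM in WT and 12.4 to 52.4 CPM in KO at 3 DPI. Its interaction of -2.06 ± 0.46 had an adjusted p of 0.197 in edgeR's test, and 0.00962 without that library. Mdm2, the ubiquitin ligase that limits p53, Zmat3, an RNA-binding zinc finger protein, and Aen, a nuclease, had uninjured effects of 1.34, 1.69 and 1.60 that were called, and interactions of -1.52, -1.66 and -1.25 that were not, in either fit. For these 3 genes a loss after injury was therefore not shown, although at 3 DPI the WT and KO libraries overlapped for each.

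Among the genes outside the p53 list that rose before injury, Gria3, a subunit of AMPA-type glutamate receptors, was at 11.6, 21.6, 38.4 and 25.3 CPM in WT and 108, 133, 140.3 and 95.3 CPM in KO libraries. At 3 DPI it was at 37.1, 23.3, 18.7 and 67.5 CPM in WT and 16.4, 20.8, 52.1 and 20.97 CPM in KO libraries, the high KO value being that of replicate 3. Its interaction was -2.73 ± 0.61 with all libraries (adjusted p = 0.197, edgeR) and -3.36 ± 0.53 without that one (adjusted p = 2.77e-04, edgeR). Exoc4, a subunit of the exocyst that tethers secretory vesicles, was at 89.7 to 103 CPM in WT and 225 to 332 CPM in KO before injury, with interactions of -1.89 (adjusted p = 0.241) and -1.69 (adjusted p = 0.00962) in the same edgeR fits. Fat1, an atypical cadherin, and Cd109, a membrane-anchored binding partner of TGF-β receptors, had interactions of -1.25 and -1.80 that were not called in either fit. Ctsc, the lysosomal protease cathepsin C, was among the 8 negative interactions of smallest p (-2.15 ± 0.50, adjusted p = 0.237, edgeR) but was at most 21.5 CPM before injury and 57.0 to 180 CPM after it.

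Markers of other cell types also differed between the states, in the same libraries as the effects that were lost. The summed CPM of 30 macrophage and myeloid markers was 254 to 391 in WT and 369 to 451 in KO uninjured libraries, and 11148 to 15312 in WT and 5533 to 14450 in KO libraries at 3 DPI. The lowest KO value at 3 DPI was that of replicate 3, and the next was 10441.5. Of the 28 markers tested, 27 rose with injury in WT and 25 in KO cells, against 5.12% and 4.29% of all genes, and 0 were called between genotypes in either state. The macrophage genes Lyz2 and Cd68 were at 0 to 18.6 and 4.7 to 17.7 CPM in uninjured libraries and at 651 to 2763 and 357 to 1010.5 CPM after injury, although CD45+ and CD11b+ cells were gated out. Their lowest values after injury were also those of KO replicate 3, and the next were 1657 and 517 CPM. The summed CPM of 12 MuSC markers was 4393 to 6612 in WT and 2387 to 3468 in KO uninjured libraries, and 1147 to 1416 and 563 to 763 CPM at 3 DPI, with none of the 12 at 0 in a whole group. In these bulk samples fewer cells of a type and less RNA per cell cannot be told apart. The part of the macrophage RNA or of the lower MuSC share in the smaller genotype effects at 3 DPI was not tested.

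The 4 positive interactions called without KO 3 DPI replicate 3 were of the matrix genes Col15a1, Col3a1, Sparc and Col6a1, each lower in uninjured KO cells and with an estimate closer to 0 at 3 DPI. With all 16 libraries 0 positive interactions were called. Among the 8 positive interactions of smallest p with 16 libraries, 5 were matrix genes (Col15a1, Col3a1, Loxl2, Fbln2 and Sparc), and the others were Hoxa10, Pdzd2 and Ptprz1. The lists of collagen chains and of the matrix and its remodelling held 44 and 42 of the 16822 genes tested. Since the interaction subtracts the uninjured effect, a large uninjured decrease favours a positive value. Col15a1 encodes a collagen of the basement membrane zone. It was at 989.9, 776, 599.9 and 952 CPM in WT uninjured and 117, 112, 182 and 225 CPM in KO uninjured libraries, and at 195, 185, 208 and 221 CPM in WT and 132, 159, 112 and 126 CPM in KO at 3 DPI. The KO libraries were below the WT libraries in both states, but with log2 fold changes of -2.39 ± 0.25 before injury (adjusted p = 4.25e-06, edgeR) and -0.61 ± 0.24 after it (adjusted p = 0.250, edgeR). Its interaction was 1.77 ± 0.34 (adjusted p = 0.0635, edgeR) and 1.73 without that library (adjusted p = 0.00588, edgeR). With injury it fell in WT (-2.04, adjusted p = 6.87e-07, edgeR).

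Col3a1, a fibrillar collagen, overlapped between the genotypes after injury. It was at 6289.9, 4041, 4326 and 6597 CPM in WT and 737, 757, 1693 and 1268 CPM in KO uninjured libraries, and at 2984, 3725, 2273 and 3207 CPM in WT and 3557, 1696, 1675 and 3011 CPM in KO at 3 DPI. In KO cells it rose with injury (1.16 ± 0.29, adjusted p = 0.00775, edgeR), while the WT value of -0.80 was not called. Sparc, a collagen-binding matricellular protein, was at 2248, 1783, 1524 and 1922 CPM in WT and 370.4, 508, 634 and 556 CPM in KO uninjured libraries, and at 928 to 1224 CPM in WT and 466 to 1059.7 CPM in KO at 3 DPI. The interactions of Col3a1 and Sparc were 1.96 ± 0.40 (adjusted p = 0.120) and 1.51 ± 0.34 (adjusted p = 0.197) in edgeR's test, and both had an adjusted p of 0.00588 without KO 3 DPI replicate 3. Col6a1, a collagen VI chain, rested on that library more than the others, since it was at 701, 351, 83.1 and 899 CPM in the KO libraries at 3 DPI against 418 to 609 CPM in WT. Its interaction of 1.44 ± 0.57 had an adjusted p of 0.757, and 1.67 ± 0.32 one of 0.00849 without it, both in edgeR's test.

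Loxl2, a lysyl oxidase that crosslinks collagen, and Fbln2, fibulin-2, had the same form with smaller effects. Loxl2 was at 189, 189, 165 and 198 CPM in WT and 73.4, 93.5, 81.6 and 69.5 CPM in KO uninjured libraries, and at 133, 124, 102 and 122 CPM in WT and 143, 128, 123 and 171 CPM in KO at 3 DPI. Fbln2 was at 462 to 683 CPM in WT and 173 to 326 CPM in KO before injury and at 239 to 368 CPM in WT and 268 to 447 CPM in KO after it. Both were called lower before injury (-1.22 and -1.23), and their interactions of 1.45 and 1.49 were not called in either fit. Over the lists, 5 of 44 collagen chains (Col15a1, Col3a1, Col4a1, Col5a2 and Col5a3) and 5 of 42 genes of the matrix and its remodelling (Sparc, Fbn1, Fbln2, Loxl2 and Lamc1) fell in uninjured KO cells, against 0.416% of all genes, and 0 of either list were called at 3 DPI. These counts depended on scaling. With library size alone 2 collagen chains were called lower and 1 higher before injury, and 1 matrix gene lower and 2 higher. With KO 3 DPI replicate 3 left out, 8 collagen chains fell and 2 rose (Col20a1 and Col6a3), and 8 matrix genes fell and 3 rose (Lox, Dcn and Mmp2), against 1.88% lower and 0.278% higher of all genes, and again 0 were called at 3 DPI. The list medians were 0.22 and 0.019 before injury and 0.14 and -0.075 in the interaction (0.14 and -0.060 without KO 3 DPI replicate 3), so the called genes did not carry their lists with them. With library size alone the collagen median in the interaction was -0.073, where that of all genes was -0.12. The collagen median was thus 0.048 above that of all genes, against 0.10 above with the main scaling. Not all matrix genes were lower, since the proteoglycan Dcn and the gelatinase Mmp2 had uninjured values of 1.07 and 0.76, which were called only without KO 3 DPI replicate 3 (1.12 and 0.81).

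**Figure D3:**
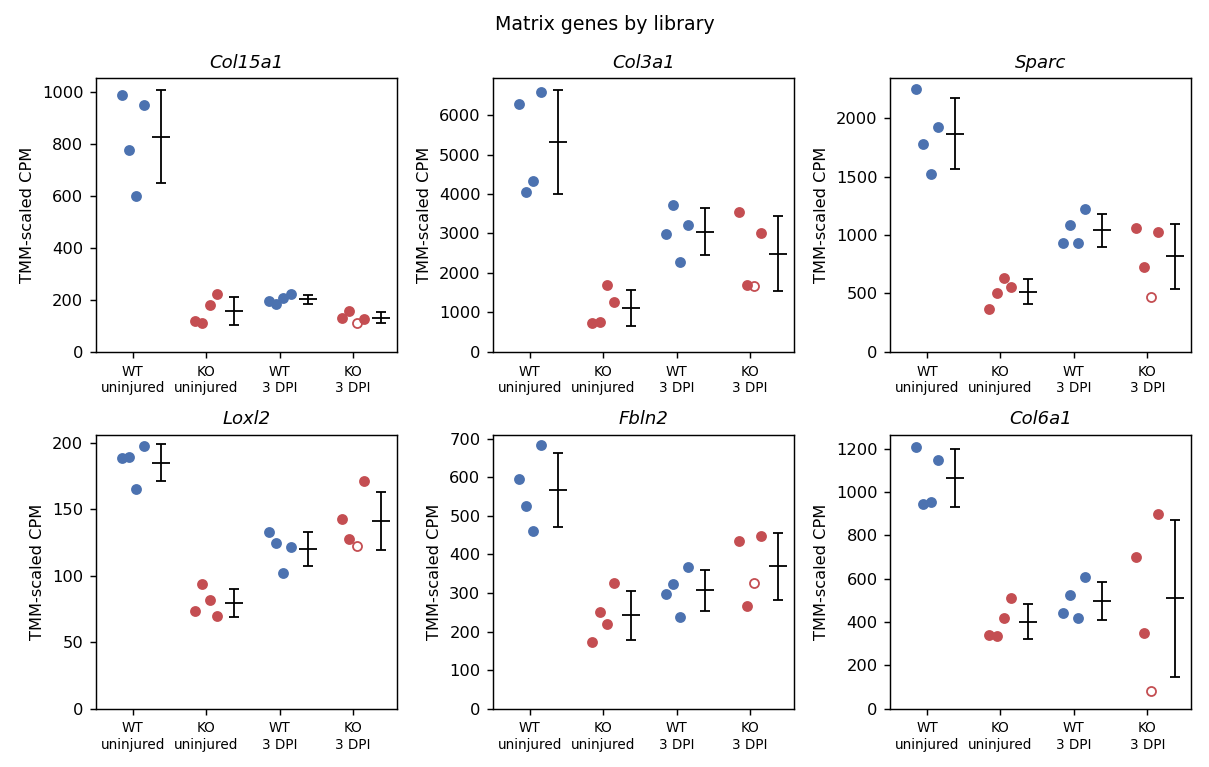
CPM of 6 matrix genes in each library (points; the open point is KO 3 DPI replicate 3), with group means and SD in black. In uninjured muscle every KO library lies below every WT library for each gene, and at 3 DPI the genotypes overlap for all but Col15a1.

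Fibroadipogenic progenitors also express these collagens. The summed CPM of 16 fibroadipogenic markers was 6254 to 9521 in WT and 2159 to 3515 in KO uninjured libraries, and 4475 to 6684 and 3576 to 6758 CPM at 3 DPI. Its largest member was Col3a1 itself, and the list median was 0.49 before injury and -0.70 in the interaction, opposite in sign to Col3a1. The defining gene Pdgfra was at most 50 CPM in WT and 58.2 to 87.6 CPM in KO uninjured libraries, and Ly6a, which encodes the gated-out surface protein Sca1, was at 4.5 to 26.0 CPM in the 8 uninjured libraries. Dpt, another marker, moved with the collagens, at 188 to 323 CPM in WT and 58.2 to 124 CPM in KO uninjured libraries. At 3 DPI Pdgfra was at 88.5 to 141.5 CPM in WT and 83.1 to 179.9 CPM in KO libraries. Ly6a was at 24.3 to 39.3 CPM in WT and 4.96 to 42.1 CPM in KO libraries there. Dpt was at 43.8 to 92.7 CPM in WT and 1.24 to 114 CPM in KO libraries at 3 DPI. The part of such cells in the collagen values was not tested.

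The remaining positive interactions were of genes with higher estimates at 3 DPI in the libraries labelled KO. Hoxa10, a homeobox transcription factor, was at 36.2, 31.1, 119 and 36.1 CPM in KO and 15.4, 10.7, 11.8 and 15.6 CPM in WT libraries at 3 DPI, and its interaction moved from 2.84 ± 0.66 to 2.04 ± 0.56 without replicate 3, the highest library. Pdzd2, a protein with several PDZ domains, was at 114, 89.5, 109 and 118 CPM in WT and 159, 182, 232 and 164 CPM in KO libraries at 3 DPI, after the opposite order in uninjured muscle (285 to 424 CPM in WT and 218 to 285 CPM in KO). Its interaction was 1.31 ± 0.30. Ptprz1, a receptor tyrosine phosphatase, was lower in KO cells before injury (160.5 to 293 CPM in WT and 70.8 to 119 CPM in KO) and overlapped at 3 DPI (26.3 to 55.6 CPM in WT and 44.4 to 119 CPM in KO). It had an interaction of 1.96 ± 0.46 and 1.40 ± 0.38 without KO 3 DPI replicate 3. None of these 3 interactions was called in either fit.

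The effects kept in edgeR, with or without KO 3 DPI replicate 3, all lowered a gene. Genes of MuSC identity and muscle structure were among the genes lowered. Itga7, the α7 chain of the laminin receptor and itself a protein used in the sort, was the single kept gene with all 16 libraries. It was at 520.0, 408, 406 and 528 CPM in WT and 144, 153, 189 and 256 CPM in KO uninjured libraries, and at 175, 269, 221 and 225 CPM in WT and 93.5, 96.9, 40.9 and 41.9 CPM in KO at 3 DPI. The genotypes did not overlap in either state, with log2 fold changes of -1.33 ± 0.27 (adjusted p = 0.0156, edgeR) and -1.70 ± 0.28 (adjusted p = 0.0142, edgeR). The interaction of -0.37 ± 0.39 did not pass (adjusted p = 0.970, edgeR), which does not show that the 2 effects are equal. Leaving out any 1 of the 15 libraries other than KO 3 DPI replicate 3 left 0 genes in the kept class, so this call is marginal, and the 3 DPI effect then called 0 to 8 genes. Des, the intermediate filament protein desmin, and Cdkn1c, the quiescence-linked kinase inhibitor p57, were called at 3 DPI and not before injury. Des was at 1007, 936, 673 and 978 CPM in WT and 402, 489, 548 and 617 CPM in KO uninjured libraries, and at 301, 424, 323 and 445 CPM in WT and 93.5, 108, 169.8 and 159.6 CPM in KO at 3 DPI. Cdkn1c was at 142, 67.5, 91.9 and 85.8 CPM in WT and 37.9, 32.2, 34.4 and 44.9 CPM in KO before injury and at 88.02, 107, 101 and 69.9 CPM in WT and 23.4, 17.3, 30.99 and 17.5 CPM in KO after it. Both genes were lower in every KO library in each state, their 3 DPI effects were -1.49 ± 0.24 and -2.03 ± 0.32 (adjusted p = 0.0113 for both, edgeR), and neither interaction passed (adjusted p = 0.859 and 0.940, edgeR).

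Without KO 3 DPI replicate 3 the kept class held 23 genes, all of them lower, with uninjured log2 fold changes of -1.79 to -0.85 and 3 DPI values of -2.29 to -1.02. Among them were Adgre5, Anxa6, Atp5b, Cct5, Cd82, Cdkn1c, Chrnb1, Crip2, Dag1, Eif5a, Flnc, Fgfr4, Fscn1, Gas1, Gpc1, Gpx3, Itga7, Myod1, Ppp1r14b, Rps7 and Sytl2. Besides muscle genes the class thus holds the ribosomal protein gene Rps7, the translation factor Eif5a and the ATP synthase subunit Atp5b. Fgfr4, a fibroblast growth factor receptor of MuSCs, was at 124, 114, 133 and 121 CPM in WT and 17.5, 54.2, 1.24 and 32.6 CPM in KO libraries at 3 DPI, with effects of -0.85 ± 0.21 before and -1.88 ± 0.27 after injury. Dag1, dystroglycan, which binds the fibre's cytoskeleton to laminin, was at 1749.8 to 2800.1 CPM in WT and 567 to 1205 CPM in KO before injury and at 591, 637, 742 and 714 CPM in WT and 286, 308, 319.8 and 236 CPM in KO after it. Its effects of -1.17 and -1.34 were close in size. Gas1, a growth arrest protein bound to the membrane, the tetraspanin Cd82 and the acetylcholine receptor subunit Chrnb1 had effects of -1.79, -0.90 and -1.07 before and -1.36, -1.40 and -1.73 after injury. Myod1, the myogenic determination factor, was at 119.7, 90.04, 123 and 83.8 CPM in WT and 63.9, 42.6, 34.4 and 31.3 CPM in KO uninjured libraries, and at 52.5, 103, 63.9 and 111 CPM in WT and 15.2, 35.8, 48.3 and 23.3 CPM in KO at 3 DPI.

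**Figure D4:**
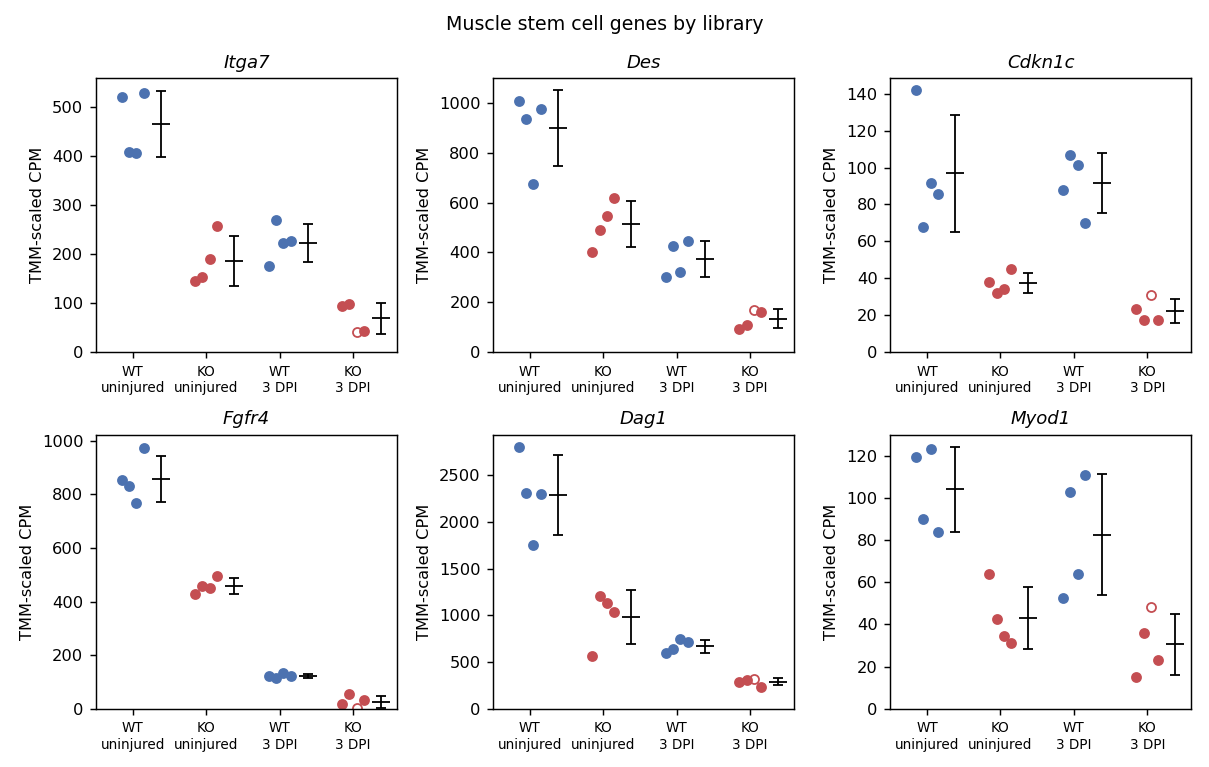
CPM of Itga7, Des, Cdkn1c, Fgfr4, Dag1 and Myod1 in each library (points; the open point is KO 3 DPI replicate 3), with group means and SD in black. For each gene the KO libraries lie below the WT libraries in both states.

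Over the list of quiescence and stem identity, 6 of 37 genes fell in uninjured KO cells (Cd34, Itga7, Sox8, Gas1, Col5a3 and Col15a1), 2 at 3 DPI (Itga7 and Cdkn1c), against 0.416% and 0.0178% of all genes, and 0 were called in the interaction. With library size alone 2 of the list were called lower before injury and 1 at 3 DPI. Several members were first named by the study from these samples, so the list is not independent evidence of its direction. Its median was -0.92 before and -0.56 after injury. Without KO 3 DPI replicate 3, 18 fell before injury and 5 at 3 DPI, against 1.88% and 0.239% of all genes, and 2 (Col6a1 and Col15a1) were called higher in the interaction, against 0.0227%. Cd34, a sialomucin of resting MuSCs and a sort marker, and Calcr, the calcitonin receptor that holds MuSCs in quiescence, had smaller 3 DPI estimates than Itga7 (-0.34 and -0.019). Cd34 was at 198, 193, 151 and 281 CPM in WT and 52.1, 90.4, 75.9 and 91.3 CPM in KO uninjured libraries, and at 75.7 to 115 CPM in WT and 32.2 to 101 CPM in KO at 3 DPI. Calcr was at 149, 131, 131 and 233 CPM in WT and 42.6, 55.1, 80.2 and 58.6 CPM in KO before injury and at 21.6, 11.7, 15.7 and 14.8 CPM in WT and 21.03, 26.5, 0 and 13.98 CPM in KO after it, near the level that few reads give. With KO 3 DPI replicate 3 left out, where Calcr was at 0, the 3 DPI estimates were -0.17 for Cd34 and 0.33 for Calcr, so that of Calcr turned, and the uninjured effect of Calcr was called (-1.39, adjusted p = 0.00108, edgeR). Their interactions of 1.07 ± 0.42 and 1.43 ± 0.67 did not pass, nor did those of 1.19 and 1.73 without that library. Pax7 and Myf5, transcription factors of MuSCs, had effects of -0.66 and -0.89 before and -0.82 and -0.79 after injury, none of them called, and without that library -0.60 and -0.83 before and -1.11 and -1.03 after injury, again not called.

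Other lower genes could not be placed. Heyl, a Notch target, had effects of -1.13 ± 0.23 before (adjusted p = 0.0156, edgeR) and -0.70 ± 0.24 after injury (adjusted p = 0.193, edgeR). Sox8, a transcription factor of MuSCs, was at 194 to 281 CPM in WT and 11.8 to 73.5 CPM in KO uninjured libraries, and at 27.5 to 75.7 CPM in WT and 1.24 to 33.4 CPM in KO at 3 DPI. Ccnd1, cyclin D1, which drives exit from G1 phase, had effects of -1.76 ± 0.34 and -1.05 ± 0.33, and an interaction of 0.70 ± 0.47. Myog, the differentiation factor myogenin, was at 41.7, 83.6, 79.7 and 84.8 CPM in WT and 5.84, 14.99, 24.8 and 34.9 CPM in KO libraries at 3 DPI, and its effects of -2.17 and -1.85 missed the threshold in both states (adjusted p = 0.0477 and 0.118, edgeR). When KO 3 DPI replicate 3 was left out, the uninjured effect of Myog was called (-2.11, adjusted p = 0.00654, edgeR) and the 3 DPI effect was not (-2.04, adjusted p = 0.0388, edgeR), while Heyl, Sox8 and Ccnd1 were again called before injury and not after it. For ribosomal proteins, whose reads can be shared with near-identical pseudogenes, 14 of 83 fell before injury, against 0.416% of all genes, and 0 were called at 3 DPI or in the interaction. With library size alone 2 ribosomal proteins were called lower before injury. Their medians were -1.07 before injury, -0.93 after it and 0.18 in the interaction, and 60 and 5 were called lower before and after injury without KO 3 DPI replicate 3, against 1.88% and 0.239% of all genes.

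In the edgeR fits 1 effect was classed as gained after injury without KO 3 DPI replicate 3, and 0 with all 16 libraries. Chodl, chondrolectin, a membrane protein of MuSCs, was at 608, 629, 767 and 820.0 CPM in WT and 288, 525, 537 and 535 CPM in KO uninjured libraries. At 3 DPI it was at 57.1, 32.1, 72.8 and 76.5 CPM in WT and 5.84, 14.99, 130.2 and 3.49 CPM in KO libraries, so that replicate 3 was the highest and the other KO libraries the lowest of the 8. The interaction was -0.060 ± 0.95 with it (adjusted p = 0.996, edgeR) and -2.39 ± 0.46 without it (adjusted p = 0.00733, edgeR). The call therefore rests on leaving out 1 library. Before injury every KO library was also below every WT library. That uninjured effect was not called without replicate 3 (-0.53 ± 0.24, adjusted p = 0.234, edgeR). Gained thus does not mean that no difference was seen before injury.

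Several lists had a lower median in the interaction with 0 members called. For 39 interferon-stimulated genes the medians were 0.11 before injury, -0.51 after it and -0.63 in the interaction, and 33 of 39 interactions were below 0. With injury 20 of them rose in WT and 10 in KO cells, against 5.12% and 4.29% of all genes. For 37 DNA replication genes the medians were 0.16, -0.48 and -0.53, and for 39 mitosis genes 0.063, -0.48 and -0.52. Of the mitosis genes 18 rose with injury in WT and 5 in KO cells, and of the replication genes 7 and 2, against the same shares. The interaction medians without KO 3 DPI replicate 3 were -0.78 for the interferon-stimulated, -0.58 for the replication and -0.44 for the mitosis genes, with 0 members called. The summed CPM of the mitosis list was 1946 to 2625 in WT and 1532 to 2262 in KO libraries at 3 DPI, and that of the replication list 1512 to 1951 and 1126 to 1396. Counts of calls in the 2 genotypes do not test their difference, and the macrophage markers above had an interaction median of -0.98 with 0 of 28 called. Their part in these lists was not tested.

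The library names carry code stems, whose meaning the labels do not give. Uninjured WT and KO libraries carry different stems (JH135 and JH140 against JH134 and JH139), so stem and genotype cannot be told apart there, whereas the stem JH133 holds 2 WT and 2 KO libraries at 3 DPI. With these 4 as the only 3 DPI libraries the interactions of Cdkn1a, Gas6, Ccng1 and Gdf15 were -2.30, -1.96, -2.47 and -2.73, with adjusted p of 0.00172, 0.0161, 0.0126 and 0.0187 in edgeR's test, all 4 called. The other 4 are WT of stem JH140 and KO of stem JH139, so stem and genotype cannot be told apart there either. Their KO libraries include KO 3 DPI replicate 3, the library that stood apart. With them the interactions were -2.72, -2.20, -2.59 and -3.94, with adjusted p of 0.0147, 0.0960, 0.0960 and 0.0498 (edgeR), and Cdkn1a alone was called. The direction was the same in both sets for these 4 genes and for Col15a1 (1.94 and 1.34), Col3a1 (1.84 and 1.83) and Sparc (1.62 and 1.13).

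**Figure D5:**
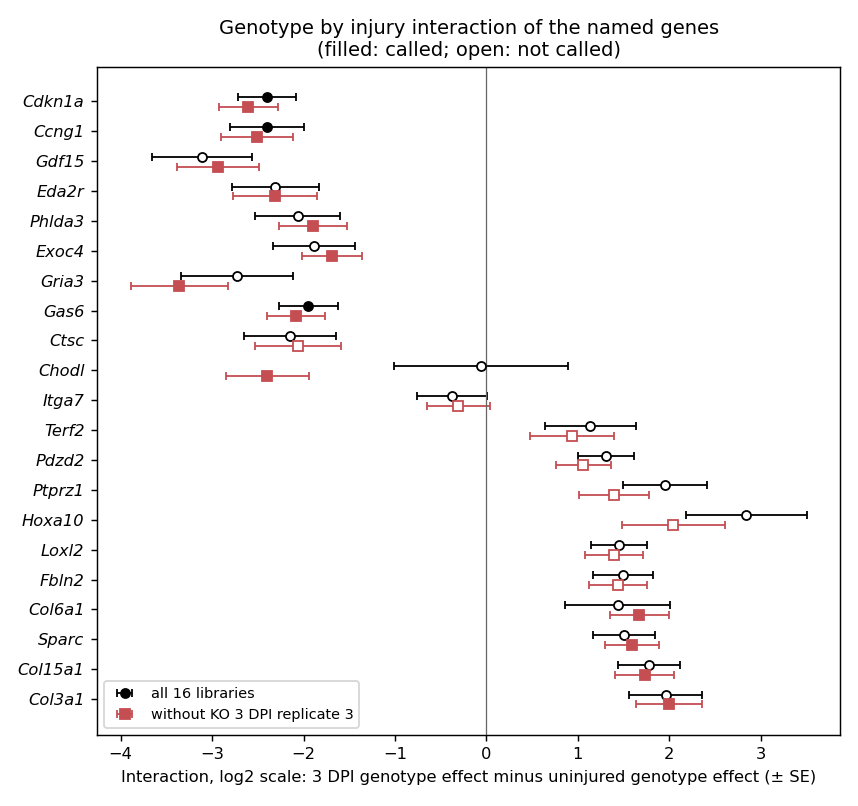
Interaction of 21 named genes on the log2 scale (3 DPI genotype effect minus uninjured genotype effect) with its standard error, from all 16 libraries (black circles) and without KO 3 DPI replicate 3 (red squares), filled where called. The estimates of the p53 targets and Gas6 lie below 0 and those of the matrix genes above it in both fits, whereas Chodl moves from -0.060 to -2.39.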

How the data were processed

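RNA-seq was measured in 16 libraries of sorted MuSCs (CORALL total RNA kit). Per the labels and the study's methods, the authors trimmed reads with Trim Galore 0.6.7, aligned them to GRCm38 with STAR and estimated gene counts with Salmon 1.5.2; the submitters' notes give STAR 2.6.1d. The kit adds unique molecular identifiers, and whether they were used in counting is not given in the sources used here. The deposited values are estimated counts per gene, without normalization, and a deposited copy scaled by abundance served as an alternative. Here counts were rounded and fitted once over 16 libraries (edgeR 4.0.16 in R 4.3.3, filterByExpr, TMM scaling, robust quasi-likelihood F test), with p-values adjusted by Benjamini and Hochberg over all genes tested and CPM scaled by TMM. Totals of 620406 to 1351100 counts per library limit the precision of low genes. Named genes were Terf2, Cdkn1a, Gas6, Ccng1, Gdf15, the 8 positive and 8 negative interactions of smallest p whose log2 CPM averaged 3 or more, classes of 10 genes or fewer, listed genes called in the interaction, and examples from the lists; genes called without KO 3 DPI replicate 3 were added after the values were seen. The members and lists were chosen with earlier results of these data known. Other scalings, filters, tools (DESeq2 1.42.0, limma 3.58.1) and left-out libraries were tried. Same-numbered replicates were not paired (24 pairs, r of -0.11 to 0.11, 1 above 0.1). Scripts were tested on simulated data. Some genes are not reported here.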

Additional observations from a re-analysis of the deposited data

Results flagged for a closer look

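The genotype effect differed between uninjured and injured muscle by the interaction test in 3 genes, Cdkn1a (-2.40), Gas6 (-1.95) and Ccng1 (-2.40 on the log2 scale). Among 92 groups of 4 values examined, 7 had a library far from the other 3, and chance gives about 1 in 20. Most of these genes were chosen by their values in the same libraries, some by a call made without KO 3 DPI replicate 3. The chance rate therefore does not hold for them, and the count is a description. In 4 of the 7 the library was KO 3 DPI replicate 3, with 52.1 CPM of Gria3, 119 CPM of Hoxa10, 119 CPM of Ptprz1 and 130.2 CPM of Chodl, each the highest of its group. The others were WT 3 DPI replicate 2 for Phlda3 (60.3 CPM, the highest), KO uninjured replicate 1 for Chodl (288 CPM, the lowest), and WT uninjured replicate 3 for its total of 909445 counts, the lowest of its group.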

How the results depend on the processing

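Cdkn1a's interaction was called under each of the 27 settings in which it was computed. Those of Gas6 (-2.20 to -1.80) and Ccng1 (-2.66 to -2.22) kept their sign under 27 and lost their call under 16 and 17, among them 13 of 16 left-out libraries each (Gas6 adjusted p of 2.56e-04 to 0.0843, Ccng1 2.77e-04 to 0.0824, edgeR), so both calls are marginal. Leaving out each of the 16 libraries in turn gave 1 to 13 genes called in the interaction, 10 to 380 in uninjured cells and 0 to 44 at 3 DPI, with 0 to 23 kept and 1 to 12 lost; the highest counts all came without KO 3 DPI replicate 3, and each of the other 15 libraries left out gave 1 or 2 interactions and 0 kept genes. Interaction, uninjured, 3 DPI, kept and lost counts that moved by over 1.5 times were as follows. Library size alone gave 28 uninjured and 0 kept. Without the filter on low counts there were 7 at 3 DPI and 3 kept, and with at least 10 counts in every library 8, 163, 85, 15 and 8. DESeq2 gave 24, 332, 167, 53 and 15, and limma 123, 666, 624, 96 and 44, with 12 reversed. limma-voom with group weights gave 530 uninjured, 0 at 3 DPI and 0 kept. The abundance-scaled counts gave 1, 10, 0, 0 and 1. The replicate block gave 1, 45, 0, 0 and 1, where the numbers do not pair the samples. The 3 DPI libraries of stem JH133 gave 7 interactions, 426 uninjured and 6 lost, and those of JH139 and JH140 gave 1, 34, 30, 2 and 1. An adjusted p under 0.05 with no minimum fold gave 174 uninjured, 8 at 3 DPI and 3 kept. The 8-library fits gave 452 uninjured, 0 at 3 DPI (1362 with an unadjusted p under 0.05 in edgeR's test) and 0 kept. Chosen after seeing the data, without KO 3 DPI replicate 3, DESeq2 gave 49, 734, 172, 100 and 41 with 1 reversed, limma-voom 9, 529, 6, 6 and 9, and library size alone 16, 293, 33, 10 and 15. Itga7's interaction turned to 0.030 with stem JH133, and that of Chodl to 0.21 with JH139 and JH140 and to between -2.39 and 0.32 over the left-out libraries. The causes were not tested. The median of all genes moved by over 0.1 with library size alone, as given above. Low genes such as Calcr at 3 DPI are limited by depth.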
